A study of Mus musculus with 8 samples.

Results

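Hepatocytes labelled as derived from transplanted bone marrow (BM) were compared at 5 months and at 1 month after transplantation. They take up 4 of the 8 arrays of the series, the 1-month hepatocytes B1 and B2 and the 5-month hepatocytes G1 and G3, chosen by their labels alone. In the study, lineage-depleted (Lin-) BM cells of female mice that carry the eGFP transgene C57Bl6/J-Tg(UBCGFP)30Scha/J, in which the ubiquitin C promoter drives the reporter in all tissues, were given to male hemophilia A mice with the disrupted F8 allele F8tm1Kaz, whose livers had been injured with acetaminophen. Donors and recipients were 6 to 8 weeks old at the start, so the 5-month group is also the older group of animals, and time since transplantation and age cannot be told apart. The hepatocytes were released by collagenase perfusion, sorted for eGFP and pooled from several mice for each array. The series also holds 2 arrays of the Lin- BM cells, L3 and L4, and 2 of primary hepatocytes, H2 and H4.

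A hepatocyte makes most of the proteins of blood plasma and carries out much of the body's handling of sugars, fats, amino acids, bile acids and foreign chemicals. Hepatocytes do not all do the same work. Those around the portal vein favour urea formation, glucose production and amino acid breakdown, and those around the central vein favour glutamine formation and drug metabolism by cytochrome P450 enzymes. After injury by acetaminophen, which kills pericentral cells, the lobule is rebuilt over days to weeks, and liver macrophages, the Kupffer cells, clear the debris.

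The comparison runs across a technical boundary. B1 and B2 were on slide 1 together with L3 and L4, and G1 and G3 were on slide 2 together with H2 and H4. The slides carry different Agilent array designs and were scanned on different days. Slide, design, scan day and time after transplantation therefore cannot be told apart in any difference given here. Only the 13991 probes whose 60-base sequence is the same on both designs were used, which are 22.8% and 25.1% of the probes of the designs. They stand for 13227 gene names.

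A probe's level is given throughout as the log2 of its signal relative to the upper quartile of these shared probes on the same array, so a level of 0 is as bright as that quartile and a step of 1 is a doubling. The sequences below are the opening 30 bases, 5′ to 3′, of the shared probes of 10 genes on which the results turn, since the comparison rests on letters that are the same on both designs. Positions are those of the whole probe in the mm9 build that the scan headers name.
Sugct (chr13:16949698-16949757, minus strand): agatatgatgagggggctattgagaagcta
Disc1 (chr8:127678972-127742017, plus strand): tgcctgccttgctggaagccaagatgctgg
C9 (chr15:6433127-6433186, plus strand): ttttaatgcagattttgccctaaaattttc
Sds (chr5:120933105-120933164, plus strand): gggcgcagaccctgaagctgttttacgaac
Cyp2f2 (chr7:27918570-27918629, plus strand): aatgacgtgacaaaggtgaaatacccgtct
Igfbp4 (chr11:98913334-98913393, plus strand): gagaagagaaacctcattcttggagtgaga
Gdpd3 (chr7:133914520-133914693, plus strand): ctgtggatggatgaaccaactgtcggctac
Abhd1 (chr5:31256786-31256925, plus strand): agccaattgaaaaggtgttggatgtagact
Afp (chr5:90937781-90937840, plus strand): gtgagccttttggcttaactgtaactgcta
Fos (chr12:86817900-86817959, plus strand): ggactttattttccagtagatagaaatcaa

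The probes of Disc1, Gdpd3 and Abhd1 span more of the genome than their 60 bases, so each is listed by the array design across a gap, as a probe over a splice junction would be. Sugct, Disc1, C9, Sds, Cyp2f2 and Igfbp4 rose, Gdpd3, Abhd1 and Afp fell, and Fos set the 2 arrays of the 1-month group apart.

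The hepatocyte label was checked first. All 8 measured members of a list of hepatocyte markers, which include albumin, apolipoproteins and a chain of fibrinogen, were well above background on all 4 arrays. Their median level was 8.02 on B1, 7.98 on B2, 8.56 on G1 and 8.65 on G3, among the brightest signals of each array. Signals themselves were lower at 1 month, with an upper quartile of 204.6 and 232.7 scanner units on B1 and B2 against 380.8 and 328.7 on G1 and G3, while the share of shared probes well above background was alike, from 56.3% to 60.4%.

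The donors were female and the recipients male, so sex-linked transcripts were read next. Xist, the RNA that silences 1 X chromosome in female cells, was not well above background with any of its probes on B1, B2, G1 or G3. The shared Xist probe that was well above background on both Lin- BM arrays, at -2.78 and -3.92, was at -6.86 and -5.92 on B1 and B2 and at -6.91 and -7.69 on G1 and G3. The Y-linked helicase gene Ddx3y was at 1.30 and 1.33 at 1 month and at 1.16 and 0.95 at 5 months, all well above background, and Eif2s3y, on a different probe in each design, was well above background on all 4 arrays as well. Ddx3y was also well above background on the Lin- BM arrays, at 0.81 and -0.08. These levels go against RNA from female donor cells alone on the 4 hepatocyte arrays, and Ddx3y goes against it on the Lin- BM arrays as well. The name BM-derived is therefore used here only as the labels give it. The share of the RNA that came from donor cells was not measured.

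The 2 arrays of the 5-month group were closer to each other than those of the 1-month group. Of 8006 genes, 21 differed more than 4-fold between G1 and G3, and 159 differed that much between B1 and B2. B1 and B2 were clearly apart in stress genes and in Kupffer cell genes, described below. The levels of the 4 arrays did not overlap between the groups in 72.5% of the genes tested and in all called genes, so a lack of overlap by itself sets no gene apart.

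Control RNA gives a measure of the slides themselves. Of the 10 E1A spike-in probes that carry the same names on both designs, 6 were brighter than the upper quartile on all arrays, and their mean level differed between the 5-month and 1-month arrays by -0.61 to 0.54. The pair named n11 and n9 swapped order, with n11 above n9 by 0.56 and 0.55 on B1 and B2 and below it by 0.54 and 0.60 on G1 and G3. The order went with the slide, since n11 was also above n9 on L3 and L4 and below it on H2 and H4. The files give no sequence for these controls, so whether the probes are identical on both designs was not tested.

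In the comparison of 5 months with 1 month, 640 genes rose and 1033 fell among the 8006 tested. These are 7.99% and 12.9% of the genes tested, 20.9% together, at an adjusted p under 0.05 in limma and a change beyond 0.6 on the log2 scale, the limit that the study's methods use. Counts of called members of the gene lists below are to be read beside these shares. The median rise was 2.61-fold and the median fall 3.18-fold. Of the genes that rose, 156 rose more than 4-fold, and of those that fell, 387 fell more than 4-fold. Rises were spread evenly over levels, at 7.28% to 9.09% of the genes in each of 5 bands of mean level. Falls were concentrated among dim genes, with 351 of 1171 genes below a level of -4 against 90 of 1791 above a level of 2.

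**Figure D1:**
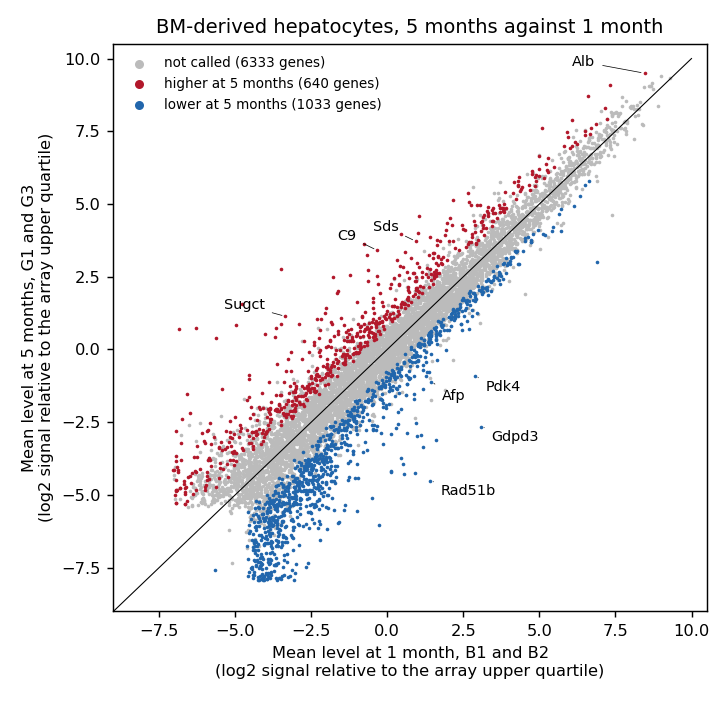
Mean level of each of the 8006 genes tested at 1 month (horizontal axis, arrays B1 and B2) and at 5 months (vertical axis, arrays G1 and G3), both as log2 signal relative to the array upper quartile, with the diagonal of equal levels. Red points are the 640 genes that rose and blue points the 1033 that fell, and the blue points are densest at the lower left, where signals are dim.

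The split between rises and falls depends on the scaling. With quantile normalization 761 genes rose and 834 fell, with cyclic loess 826 and 833, and with the full probe set of each design setting the quartile 943 and 721. The last of these moved the median change of all genes from -0.07 to 0.16. Changes near 1 on the log2 scale are therefore to be read against a shift of that size, and the larger changes below kept their direction under each of these scalings. The probe's base composition went with the change as well. Where all 4 arrays were well above background, the median change of the genes was -0.26 for probes of 32% to 38% G and C and 0.22 for those of 50% and more. The part of base composition in the changes was not tested.

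Changes were ranked without genes named only as a prediction or a clone, odorant and pheromone receptors, and names absent from the RefSeq table. Among the other genes well above background on each array, the largest rise was that of Sugct. It encodes a mitochondrial enzyme that transfers coenzyme A to glutarate. Sugct was at -3.32 and -3.38 on B1 and B2 and at 1.02 and 1.26 on G1 and G3, a rise of 4.48 ± 0.47 (SE, n = 2 arrays a group) or 22.4-fold (limma, adjusted p = 0.00263). Both 5-month arrays lay far above both 1-month arrays, and the primary hepatocytes, on the same slide as the 5-month arrays, were at -3.05 and -3.36, the 1-month level. Disc1, a scaffold protein best known from neurons, was at -3.60 and -2.20 at 1 month and at 0.91 and 0.87 at 5 months, 13.8-fold higher (adjusted p = 0.0031). Here the primary hepatocytes, at 0.82 and 0.72, were at the 5-month level.

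C9, the pore-forming last component of complement, rose 13.3-fold, from -0.63 and -0.03 to 3.36 and 3.45 (adjusted p = 0.00198). The other large rises, by the rule of naming the 10 largest where all 4 arrays were well above background, were those of Fam25c, of Rprd1b, which binds the tail of RNA polymerase II, of Tent5c, a poly(A) polymerase, of Slc22a7, an organic anion transporter of the hepatocyte, of Nat8f5, of the mitochondrial aldehyde dehydrogenase Aldh1b1 and of Tagln, an actin-binding protein of smooth muscle. These 10 rises ran from 11.5-fold to 22.4-fold. Rprd1b has a further shared probe, and on it the change was 1.05 in place of 4.28, so its size depends on the probe.

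In the same ranking, with every array well above background, the largest fall was that of Rad51b, a gene of homologous recombination. Rad51b was at 1.92 and 0.87 at 1 month and at -4.15 and -4.87 at 5 months, a fall of 5.91 on the log2 scale, with an SE of 0.56, or 60.1-fold (adjusted p = 0.00198). Gdpd3, a phospholipid hydrolase, fell 52.6-fold from 2.92 and 3.21 to -2.81 and -2.49 (adjusted p = 0.000797). Abhd1, named for an alpha/beta hydrolase but listed as a transcribed pseudogene, fell 26.4-fold from 1.63 and 1.56 to -3.13 on both 5-month arrays (adjusted p = 0.000797). The arrays of the groups were far apart in each of these genes.

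The remaining large falls were those of the sarcomere gene Myom2, of Igsf23, of Prelid2, of the glycosyltransferase gene B3galnt1, of the drug efflux pump Abcb1b, of the meiosis gene Tex12 and of the cilium gene Ift57, and these 10 falls ran from 17.9-fold to 60.1-fold. The primary hepatocytes, which share slide and design with the 5-month arrays, stood nearer the 1-month mean in all 10 of these falls and in 4 of the 10 rises. Over all called genes they stood nearer the 1-month mean in 191 of the 1033 falls and in 189 of the 640 rises. These are 18.5% and 29.5%, so in most called genes they stood nearer the 5-month arrays of their own slide. Abhd1 belongs to the smaller part. In it H2 and H4 were at 1.56 and 1.54, beside 1.63 and 1.56 at 1 month, while both 5-month arrays were at -3.13.

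**Figure D2:**
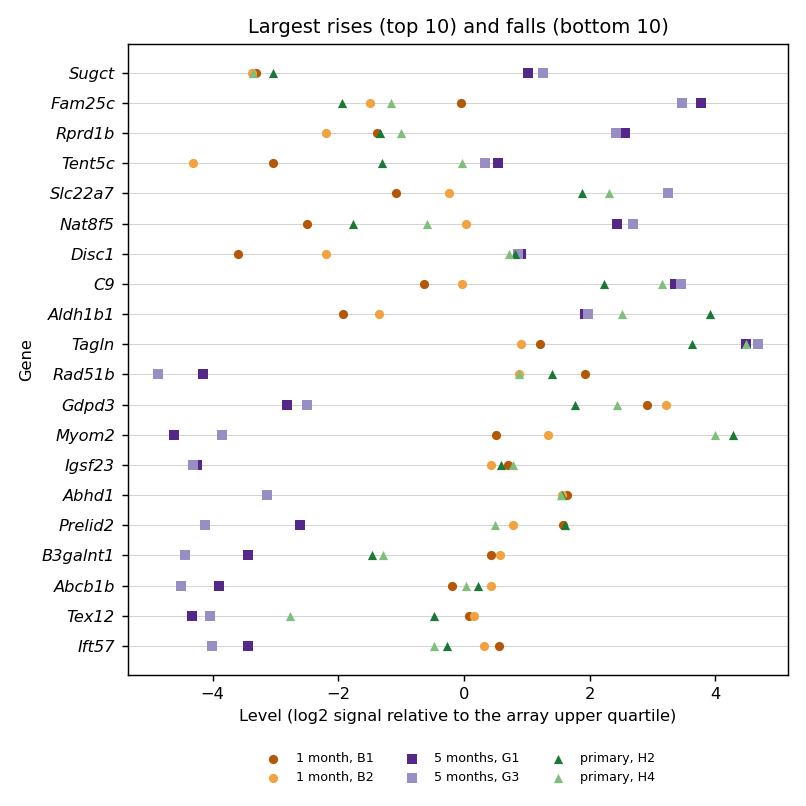
Levels of the 10 ranked genes with the largest rises (upper rows) and the 10 with the largest falls (lower rows) on each hepatocyte array, as log2 signal relative to the array upper quartile. Circles are the 1-month arrays, squares the 5-month arrays and triangles the primary hepatocyte arrays, and in all 20 rows the squares lie clear of the circles.

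Several periportal genes rose. Of 13 tested members of a list of genes known to be highest near the portal vein, 6 rose and 0 fell. Over all genes tested 7.99% rose and 12.9% fell. All 13 members had a change above 0, and their median change was 1.60, beside -0.07 for all genes tested. Aldh1b1 rose by 3.59 on the log2 scale, from -1.92 and -1.35 to 1.93 and 1.97 (adjusted p = 0.00457). Sds, serine dehydratase, which feeds serine into glucose production, was at 0.78 and 1.10 at 1 month and at 3.53 and 3.90 at 5 months, 6.83-fold higher (adjusted p = 0.0215). Cyp2f2, the P450 enzyme often used to mark periportal cells, was at 4.41 and 5.78 at 1 month and at 7.51 and 7.72 at 5 months, 5.73-fold higher (adjusted p = 0.0166). B1 and B2 differed clearly in Cyp2f2, but both lay below both 5-month arrays.

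Pigr, which carries immunoglobulin A into bile, rose 4.48-fold from 2.33 and 1.90 to 4.45 and 4.11 (adjusted p = 0.0046). Arg1, the last enzyme of the urea cycle, rose 3.03-fold from 3.30 and 3.33 to 4.70 and 5.12 (adjusted p = 0.0152), and Uroc1, of histidine breakdown, 2.86-fold from 3.85 and 3.91 to 5.32 and 5.47 (adjusted p = 0.00549). The primary hepatocytes were at 5.07 and 5.38 in Arg1 and at 5.16 and 4.99 in Uroc1, again above the 1-month arrays. Gls2, Cdh1, Ctsc and Hal were higher on both 5-month arrays but did not pass the test, and Fbp1, at 8.01 and 8.12 against 8.26 and 8.50, and G6pc, at 5.75 and 6.13 against 6.11 and 6.12, lay close in both groups.

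The pericentral list did not move with it. Of its 10 tested members 1 rose and 0 fell, beside 7.99% and 12.9% of all genes tested, with a median change of 0.14. The member that rose was Cyp1a2, a drug-metabolizing P450, from 4.35 and 4.24 to 5.56 and 5.76 (2.58-fold, adjusted p = 0.025). Oat, ornithine aminotransferase, was at 5.00 and 5.57 at 1 month and at 3.95 and 3.77 at 5 months (adjusted p = 0.138), and the ammonium transporter Rhbg was at 1.26 and 2.16 against 1.87 and 1.84. The difference between the lists was not tested. Without B1 the median changes were 1.49 for the periportal and -0.06 for the pericentral list, and without B2 1.90 and -0.01.

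**Figure D3:**
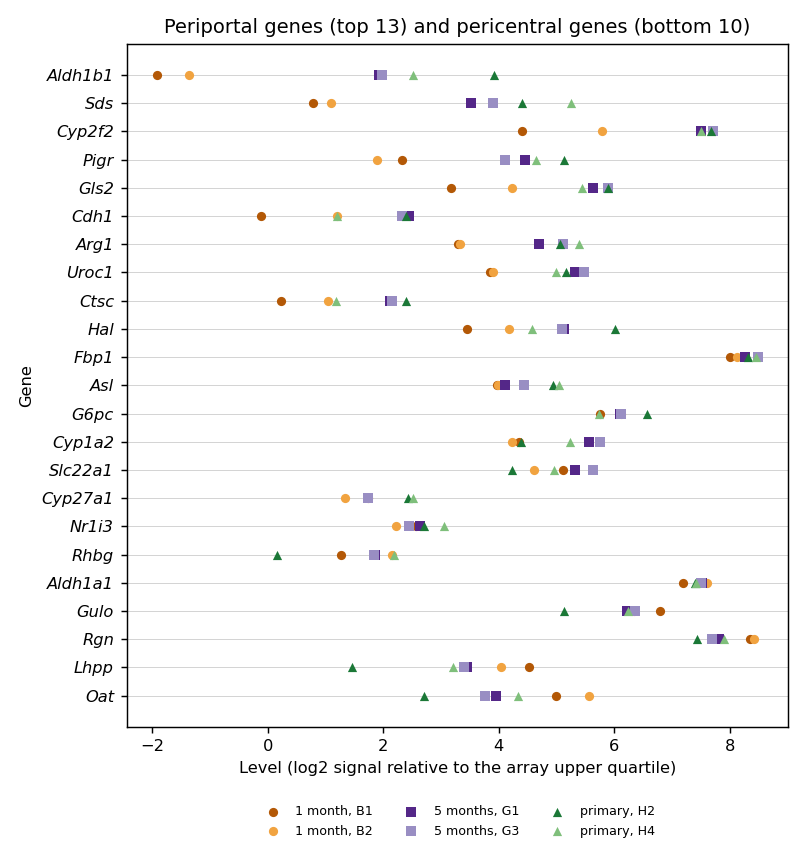
Levels of 13 periportal genes (upper rows) and 10 pericentral genes (lower rows), each ordered by change, on the hepatocyte arrays, as log2 signal relative to the array upper quartile. Squares (5 months) lie far to the right of circles (1 month) in the rows of Aldh1b1, Sds and Cyp2f2, and among the pericentral rows Cyp1a2 is the gene that passed the test.

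Genes of secreted liver proteins that passed the test were mostly higher at 5 months. Of 26 tested genes of complement and coagulation 6 rose and 0 fell, beside 7.99% and 12.9% of all genes tested, with a median change of 0.43. Beside C9, the genes that rose most were C6, another component of the membrane attack complex, from -0.47 and 0.70 to 2.26 and 2.23 (4.38-fold, adjusted p = 0.0349), Plg, plasminogen, which dissolves clots, 2.55-fold (adjusted p = 0.018), and F7, which starts clotting with tissue factor, 2.53-fold (adjusted p = 0.0175). C8a and the mannose-binding lectin Mbl2 rose by 0.74 and 0.69 on the log2 scale. The brightest of those named here, C3, was at 9.35 and 9.23 at 1 month and at 9.30 and 9.38 at 5 months.

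F8, the clotting factor whose gene is disrupted in the recipients, was dim. It was at -4.26 and -4.20 on the 1-month arrays and at -2.34 and -2.58 on the 5-month arrays, 3.41-fold higher, and did not pass the test (adjusted p = 0.0517). On all 4 arrays it was well above background. Since F8 in the liver is mainly a product of sinusoidal endothelial cells, it was also a member of that list, below.

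Alb, the albumin gene, at 8.50 and 8.41 at 1 month and at 9.44 and 9.55 at 5 months, rose 2.05-fold (adjusted p = 0.018), and Apoa1, the main protein of high-density lipoprotein, 2.03-fold (adjusted p = 0.0286). Of 8 hepatocyte markers 2 rose and 0 fell (median change 0.61), and of 14 plasma proteins 2 rose and 0 fell (median 0.59). Of 11 apolipoproteins 2 rose and 0 fell (median 0.17). Among all genes tested 7.99% rose and 12.9% fell, and none of the 3 lists was tested against those shares. These counts depended on the processing. With quantile normalization 1, 0 and 2 members of the 3 lists rose, and the medians were 0.26, 0.39 and -0.07. With normexp background correction 7, 10 and 3 rose, and 1 apolipoprotein fell. The other plasma protein that rose was Itih2 and the other apolipoprotein was Apob, which rose 2.25-fold from 5.87 and 5.76 to 7.23 and 6.74 (adjusted p = 0.036). The summed linear signal of the hepatocyte markers, relative to the upper quartile, was 2004 and 1903 on B1 and B2 and 3036 and 3186 on G1 and G3. In bulk samples more hepatocytes and more RNA of these genes per hepatocyte cannot be told apart.

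Calls among genes of fat oxidation went both ways, and the largest were falls. Of 20 tested genes of fatty acid oxidation and ketogenesis 2 rose and 4 fell, not far from the 7.99% and 12.9% of all genes tested, with a median change of 0.02. Pdk4, the kinase that shuts off pyruvate dehydrogenase in fasting, was at 3.49 and 2.25 on the 1-month arrays and at -0.87 and -0.98 on the 5-month arrays, a fall of 3.79 on the log2 scale, 13.9-fold (adjusted p = 0.00346). Fgf21, the fasting hormone of the liver, was at 1.46 and 1.06 and then at -0.98 and -0.83, 4.48-fold lower (adjusted p = 0.0152). Cyp4a10, which hydroxylates fatty acids, fell 2.33-fold (adjusted p = 0.0435) and the dehydrogenase Acadl by 0.89 on the log2 scale (adjusted p = 0.0476).

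Against these, the short-chain dehydrogenase Acads rose 3.43-fold, from 1.15 and 0.56 to 2.41 and 2.86 (adjusted p = 0.0103), and the carnitine carrier Slc25a20 by 0.90 on the log2 scale (adjusted p = 0.0279). When the full probe set of each design set the quartile, 3 of the 20 rose and 2 fell. The medium-chain dehydrogenase Acadm was at 5.97 and 6.04 at 1 month and at 5.31 and 5.32 at 5 months (adjusted p = 0.0792).

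Cholesterol and fatty acid synthesis gave no calls, with 0 of 16 and 0 of 8 tested genes past the test in limma. Over all genes tested 7.99% rose and 12.9% fell, and none of the lists in this paragraph was tested against those shares. Sc5d, a late enzyme of cholesterol synthesis, was at 6.06 and 5.85 against 6.65 and 6.53 (adjusted p = 0.204). Glucose production and glycogen gave none either, with 0 of 13. Amino acid breakdown gave 2 rises and 0 falls among 19 genes, which were Sds and Uroc1, already counted among the periportal genes, and the urea cycle 1 rise among 6, which was Arg1.

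Genes of drug and bile acid handling gave calls in both directions, at shares near those of all genes. Of 36 tested P450 genes of families 1 to 4, 3 rose and 5 fell, beside 7.99% and 12.9% of all genes tested, with a median change of 0.20. The balance rests on the scaling, with 9 rises and 4 falls when the full probe set of each design set the quartile. Cyp2c54 fell 3.10-fold, from 2.43 and 2.80 to 0.77 and 1.19 (adjusted p = 0.0164), as did the dim Cyp2c66 and Cyp4f39. Among 27 conjugating enzymes, 1 rose and 2 fell, against 4 and 1 with that scaling, the falls being those of Mgst2 (2.93 on the log2 scale, adjusted p = 0.0426) and Sult1c2. Near copies of P450 and conjugating genes can share signal on 1 probe, so single members of these families are uncertain.

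Of 16 genes of bile acid synthesis and transport 2 rose and 2 fell. Abcc2, which pumps conjugates into bile, rose 2.92-fold from 1.67 on both 1-month arrays to 3.29 and 3.15 (adjusted p = 0.0294), and Slc51b rose 2.42-fold (adjusted p = 0.0457). Slc10a1, which takes bile acids up from blood, fell 2.37-fold from 3.31 and 3.25 to 1.62 and 2.45 (adjusted p = 0.0469), and Slco1a4, an uptake transporter, 2.56-fold (adjusted p = 0.0173). With that same scaling Slc10a1 did not pass the test.

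Among genes of insulin-like growth factor (IGF) signalling, 3 that encode binding partners of IGF rose. Of 10 tested genes of the growth hormone and IGF axis 3 rose and 0 fell, beside 7.99% and 12.9% of all genes tested. Only 5 of the 10 had a change above 0. Igfbp4 was at -0.20 and -1.05 at 1 month and at 2.40 and 2.34 at 5 months, 7.96-fold higher (adjusted p = 0.00321). Igfbp2 rose by 1.58 on the log2 scale, from 4.26 and 4.08 to 5.59 and 5.91 (adjusted p = 0.00612), and Igfals, the acid-labile subunit, 3.50-fold from 0.15 and -0.52 to 1.34 and 1.90 (adjusted p = 0.0224). The median of the list, 0.33, depended on the 1-month array, at 0.81 against B2 alone and -0.33 against B1 alone.

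Growth hormone also sets sex differences in the liver. Of 8 tested genes that are higher in male liver 2 rose and 0 fell, beside 7.99% and 12.9% of all genes tested. Their median change was 1.04, at 0.83 against B2 alone and 1.25 against B1 alone. The rises were those of C6 and of Nudt7, from 1.07 and 2.70 to 4.11 and 3.75 (4.13-fold, adjusted p = 0.0342). Of 10 tested genes that are higher in female liver 0 rose and 2 fell (median -0.68), which were Cyp4a10 and Cyp2b13. Among the 8 well above background on all 4 arrays 1 fell, and the median was -0.30. Cyp2b13 could be tested only because both 1-month arrays were well above background, so the filter largely set the direction of its call. Cyp2b13 was not well above background at 5 months and was at least 4.01-fold lower there, where "at least" takes each array of the dim group at the higher of the gene's measured level and the lowest level that counted as well above background on that array.

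Of 8 tested hepatic transcription factors 1 rose and 0 fell, beside 7.99% and 12.9% of all genes tested. Cebpa, which drives genes of the mature hepatocyte, was at 1.86 and 1.35 at 1 month and at 2.96 on both arrays at 5 months, 2.55-fold higher (adjusted p = 0.0237). Foxa3 was at -0.49 and -1.10 against 0.45 and 0.43 (adjusted p = 0.0857) and Gata6 at 1.40 and 0.40 against 0.22 and 0.11 (adjusted p = 0.174). Afp, the albumin of the fetal liver, which comes back during regeneration, was at 1.08 and 1.78 at 1 month and at -1.07 and -1.13 at 5 months, a 5.78-fold fall (adjusted p = 0.014). The primary hepatocytes, on the slide of the 5-month arrays, were at -0.69 and -0.74, near the 5-month arrays. The Lin- BM arrays, on the slide of the 1-month arrays, were at 0.97 and -0.43. Of the 12 fetal liver and biliary genes with a shared probe only Afp and 1 other were bright enough to test. Gpc3 and the duct keratin gene Krt7, for example, were not well above background on any of the 4 arrays.

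The study is about enzymes that act on lysine 27 of histone H3. None of the 16 tested chromatin regulators passed the test, but with quantile normalization, cyclic loess, the quartile of the full probe set or the authors' values 3 of them rose. Ezh2, which methylates this lysine, was at -1.25 and -1.10 at 1 month and at -1.79 and -2.27 at 5 months (adjusted p = 0.129), its partner Suz12 at 0.08 and -0.47 against -0.26 and -0.32 (adjusted p = 0.854), and the demethylase gene Kdm6a at -4.13 and -3.47 against -2.79 and -3.04 (adjusted p = 0.0772). Kdm6b, the gene of JMJD3, has no shared probe and was not compared. Of 9 tested genes that the paper names for its arrays, C9 rose and the other 8 did not pass, among them Ino80 at -4.11 and -6.42 against -2.82 and -3.38 (adjusted p = 0.0673) and Aldh8a1 at 5.21 and 5.28 against 5.25 and 5.29.

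B1 differed from B2 in stress genes. Of 19 tested immediate early and stress genes, which a cell switches on within minutes of a stimulus, 11 were more than 4-fold higher on B1 than on B2 and 0 were more than 4-fold lower. Fos was at 3.20 on B1 and at -3.36 on B2, with -1.25 and -1.22 on G1 and G3 between them. Egr1 and Atf3, named after their values were seen, were at 5.51 and 2.64 on B1 and at -0.87 and -3.63 on B2. No member passed the test, including Jund at 6.39 and 5.19 against 4.30 and 4.39 (adjusted p = 0.0724), and the median change of -1.11 became 0.22 against B2 alone and -2.44 against B1 alone. Without B1 the change of Egr1 turned from -0.61 to 2.57 and passed the test (adjusted p = 0.0307), and that of Fos turned from -1.16 to 2.13 without passing (adjusted p = 0.137). In all, 3 members rose without B1, and 7 fell without B2. The median level was 2.83 on B1, -0.93 on B2 and -0.84 and -0.83 on the 5-month arrays, while the summed linear signal was 407 on B1, 94.1 on B2 and 234 and 256 on the 5-month arrays, between the 1-month values.

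Kupffer cell genes were higher at 5 months, and B1 was lower than B2 in most of them. Of 14 tested members 2 rose and 0 fell, beside 7.99% and 12.9% of all genes tested. All 14 had a change above 0, and the median change was 1.68. Marco, a scavenger receptor, was at -0.24 and -0.99 at 1 month and at 3.36 and 2.10 at 5 months, 10.2-fold higher (adjusted p = 0.038). Csf1r, the receptor for the macrophage growth factor, was not well above background at 1 month and was at least 4.52-fold higher at 5 months (adjusted p = 0.0186). It was tested only because both 5-month arrays were well above background, so the filter largely set the direction of its call.

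For the rest of the list B2 lay near the 5-month arrays and B1 below them. Clec4f, the marker of resident Kupffer cells, was at -0.99 on B1, 1.55 on B2, 1.81 on G1 and 2.24 on G3, and did not pass the test. Against B2 alone the median change of the list was 0.56 and 0 members passed the test, as was also the case without G1 or without G3, and 6 of the 14 were more than 4-fold higher on B2 than on B1. The summed linear signal of the 15 Kupffer genes with a shared probe was 7.63 on B1, 23.5 on B2, 35.5 on G1 and 32.8 on G3, and 7.56 and 17.6 on the primary hepatocyte arrays, well below that of the hepatocyte markers. The part of these cells in other differences was not tested.

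Markers of other blood cells gave at most 1 call a list, beside 7.99% rises and 12.9% falls among all genes tested. Most of these lists were short, and none was tested against those shares. Of 15 tested pan-leukocyte genes 1 rose, Laptm5, from -5.01 and -3.82 to -1.80 and -2.66 (adjusted p = 0.0439), and of 5 lymphocyte genes 1 rose, the B cell receptor gene Cd79b (adjusted p = 0.0455). Of 5 erythroid genes 1 fell, Slc4a1, the anion exchanger of red cells (adjusted p = 0.0119), while the summed signal of the 13 erythroid genes with a shared probe was 10.4 and 17.5 on B1 and B2 and 11.9 and 12.8 on G1 and G3. None of 9 tested blood progenitor genes and none of 4 neutrophil granule genes passed the test. The neutrophil genes stood apart on G1, where the summed signal of 11 genes was 3.44 against 0.26 on G3, 0.41 on B1 and 0.60 on B2.

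Endothelial and stellate cell genes had mixed changes. Of 14 tested sinusoidal endothelial genes 2 fell and 0 rose, beside 12.9% and 7.99% of all genes tested, with a median change of -0.56. The falls were those of the receptors of vascular endothelial growth factor, Kdr, from 2.39 and 2.53 to 1.55 and 1.06 (adjusted p = 0.0355), and Flt1, from 2.18 and 2.30 to 1.26 and 1.06 (adjusted p = 0.0308). With the full probe set of each design setting the quartile neither passed and 2 other members rose instead, so the direction of calls in this list rests on the scaling, although its median stayed below 0. Without any 1 of the 4 arrays no member passed. Acta2, the actin of activated stellate cells and smooth muscle, fell 4.42-fold from -2.67 and -1.92 to -4.50 and -4.37 (adjusted p = 0.00674), while Tagln, which usually goes with it, rose 11.5-fold from 1.20 and 0.91 to 4.49 and 4.68 (adjusted p = 0.00276).

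**Figure D4:**
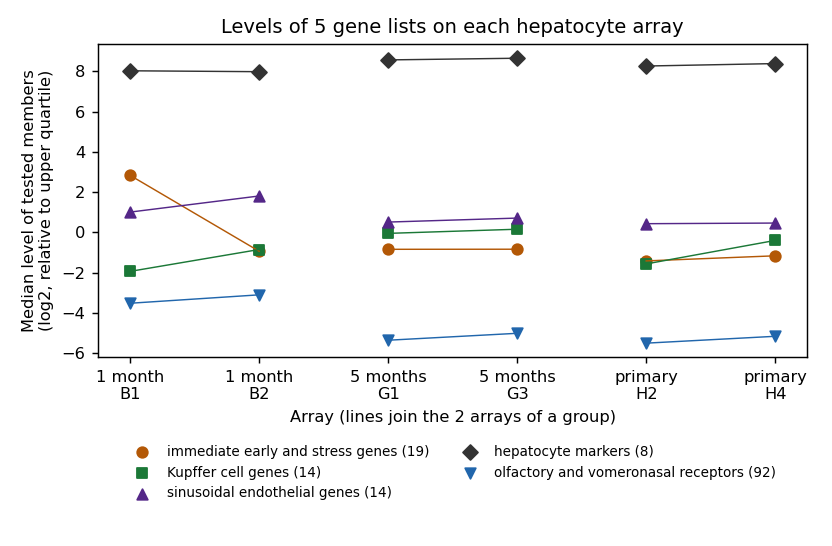
Median level of the tested members of 5 gene lists on each hepatocyte array, as log2 signal relative to the array upper quartile, with a line joining the 2 arrays of a group. The immediate early and stress genes are at 2.83 on B1 and between -1.42 and -0.83 on the other arrays, and the olfactory and vomeronasal receptors are higher on both 1-month arrays than on the other 4. More receptor probes were well above background on the 1-month arrays, and the filter kept such probes.

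Acute phase, interferon and cell cycle genes each gave few calls in both directions, at shares not far from or below the 7.99% and 12.9% of all genes. Of 16 acute phase genes 1 rose, Orm1, from 2.09 and 2.04 to 4.46 and 4.60 (5.52-fold, adjusted p = 0.0295), and 2 fell, Apcs, the serum amyloid P component, 3.94-fold (adjusted p = 0.0316) and Steap4 (adjusted p = 0.0461). Of 18 interferon genes 2 rose, the regulator Irf7, from -3.77 and -3.88 to -2.28 and -1.33 (adjusted p = 0.0177), and the tetherin gene Bst2, from 4.28 and 4.30 to 5.86 and 5.69 (adjusted p = 0.0376), and 1 fell, Iigp1 (adjusted p = 0.0341). Of 18 genes of the cell cycle and DNA replication, Mcm6, of the replicative helicase, rose 6.88-fold from -2.11 and -1.59 to 1.06 and 0.81 (adjusted p = 0.00764), and Pcna, the sliding clamp, fell 2.26-fold (adjusted p = 0.0121).

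Calls among genes that every cell uses are to be read beside the 7.99% of all genes tested that rose and the 12.9% that fell. Of 59 genes of the respiratory chain and ATP synthase 1 rose and 1 fell, with a median change of 0.04, and the fall was that of Cox6b2, a testis form of a subunit, by 4.05 on the log2 scale (adjusted p = 0.00184). Of 32 ribosomal protein genes 4 rose and 0 fell (median 0.05), led by Rpl7a at 2.46-fold (adjusted p = 0.0164). Ribosomal protein genes have many near-identical copies in the genome, so these values are uncertain. Of 7 housekeeping genes 1 fell, Hprt, from 5.38 and 5.52 to 4.13 and 4.30 (adjusted p = 0.00904), while Gapdh was at 6.35 and 6.03 against 6.47 and 6.49. Hprt was at 5.27 and 5.33 on the Lin- BM arrays, which share the slide of the 1-month arrays. On the primary hepatocyte arrays, which share the slide of the 5-month arrays, it was at 4.30 and 4.40. The part of the slide in this fall was not tested.

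**Figure D5:**
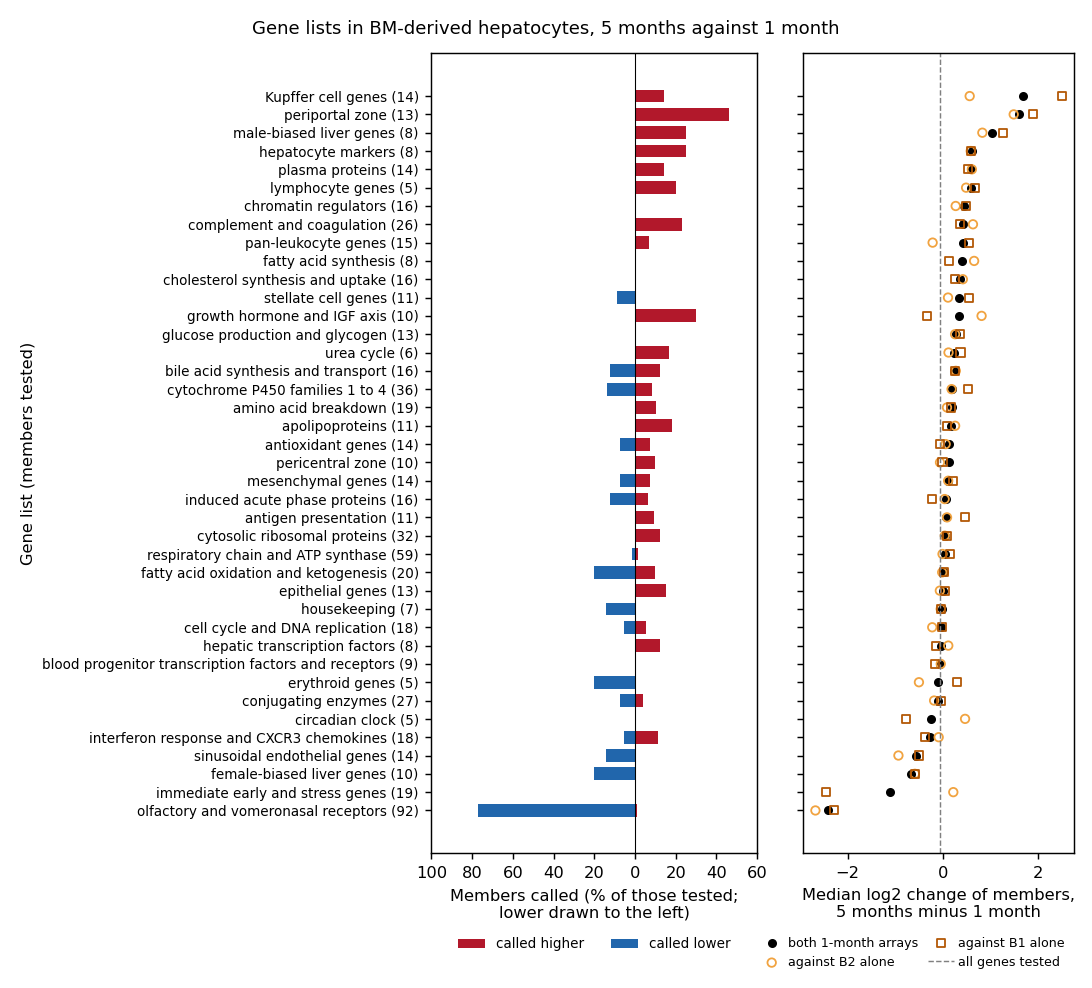
Left, the percent of tested members of each gene list with 5 or more of them that rose (red, to the right) or fell (blue, to the left) at 5 months. Right, the median log2 change of the members (black), the same against B2 alone (open circles) and against B1 alone (open squares), with a dashed line at the median of all genes tested. The periportal list has the highest share of rises, the receptor list the highest share of falls, and the lists whose open symbols lie far apart rest on 1 of the 1-month arrays. In the receptor list the filter on dim probes in part set the direction of the calls.

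Odorant and pheromone receptors, which a liver is not known to use, made up part of the falls. Of 559 olfactory and vomeronasal receptor genes with a shared probe 92 were tested. Of these 1 rose and 71 fell, beside 7.99% and 12.9% of all genes tested, with a median change of -2.42. Their probes were well above background in 92 and 127 cases of 562 on B1 and B2 and in 59 and 62 cases on G1 and G3. A receptor could be tested when well above background in 1 group alone, which was more often the 1-month group. The direction of these calls and their median change were therefore in part set by the filter. Over all 562 probes the median level was -6.81 on B1, -6.66 on B2, -7.87 on G1 and -7.53 on G3. The Lin- BM arrays, on the same slide as the 1-month arrays, had 125 and 102 such probes well above background with median levels of -7.89 and -7.99. The part of dim signal in the other falls was not tested.

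For genes not well above background in 1 group only a lower bound can be given. At 1 month this held for 288 tested genes, of which 90 were called higher at 5 months, and at 5 months for 249, of which 228 were called lower. Over all genes tested the shares were 7.99% higher and 12.9% lower. Such a gene was tested only because both arrays of the other group were well above background. The direction of these calls was therefore largely set by the filter, and the counts carry no test. Trim12a was at least 90.8-fold higher at 5 months (adjusted p = 0.000797), Clec2h at least 86.7-fold (adjusted p = 0.00162) and Plet1 at least 65.1-fold (adjusted p = 0.00655). In all 3 both primary hepatocyte arrays were far below the 5-month arrays too, with Trim12a for example at 0.94 and 0.48 on G1 and G3 and at -8.13 and -7.65 on H2 and H4. Plet1 has a further shared probe, and that probe was not well above background on any of the 4 arrays. In the other direction Zscan2 was at least 39.7-fold lower at 5 months (adjusted p = 0.000797), Ptchd1 at least 10.7-fold (adjusted p = 0.00374) and Col6a2, a chain of collagen VI, at least 9.54-fold (adjusted p = 0.00209).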

How the data were processed

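Each 1-colour Agilent array gave, per the file headers, a processed spot intensity from Agilent Feature Extraction 11.5.1.1, which the authors deposited without scaling between arrays. The authors also deposited log2 values shifted to each array's 75th percentile in GeneSpring, used here as an alternative. The groups lie on different slides and designs, so the processed intensities of probes identical in sequence were taken to log2 and shifted to each array's 75th percentile over these probes. Outlier spots were left out and spots of a probe averaged. Names came from a RefSeq table by accession for 11822 probes, by symbol for 879 and by synonym for 154, and from the array for 1136. A gene was tested, on its brightest probe, if well above background on both arrays of either group. The model, in limma 3.58.1 under R 4.3.3, held a mean for each of the 4 groups over all 8 arrays, with Benjamini-Hochberg adjustment, after a test on simulated data. Calls lay beyond 0.6 on the log2 scale with adjusted p-values below 0.05.

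The comparison and gene lists were chosen with earlier results of these data known. The rule for names took the 10 largest changes and the 3 largest bounds each way, both ranked without the kinds of genes left out above. Up to 4 called members of a list were taken, or the first 2 in list order where fewer than 2 were called. The rule also took the genes the study names for its arrays, with F8 and the enzymes of histone H3 lysine 27. Acadl, Atf3, C3, C8a, Cdh1, Clec4f, Ctsc, Egr1, Gls2, Hal, Mbl2 and Slc25a20 fall outside it and were named after their values were seen. Arrays of a group held separate pools of mice, and with 2 arrays a group the p-values rest on a spread shared by all 4 groups. The number of arrays limits the precision. The alternatives were other background corrections, scalings, filters, probe rules, samples and tests, and leaving out each array.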

Additional observations from a re-analysis of the deposited data

How the results depend on the processing

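Against 640 rises and 1033 falls, leaving out 1 array gave 105 to 256 rises and 268 to 513 falls, the lone array being assumed to vary like the other groups. The methods' test, Student's on the same values, gave 790 and 1217 at an unadjusted p under 0.05 and 4 and 10 after Benjamini-Hochberg adjustment. The other settings kept both counts within 1.5 times. Rises were 38.3% of calls, and 31.7% with normexp background correction, 47.7% with quantile normalization, 49.8% with cyclic loess, 56.7% with the percentile over all probes, 57.3% in the authors' tables and 24.1% with no filter on dim probes. No paired analysis was possible because the groups share only replicate number 1. Of the 88 called genes that the text names, 0 changed sign under any setting, and 41 to 56 no longer passed when 1 array was left out.

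Among named genes that were not called, several changed sign. With normexp the change was -0.062 for Aldh8a1 and -0.094 for Kdm6a, and with quantile normalization -0.049 for Aldh8a1 and -0.20 for C3. Suz12 was at 0.13 with the percentile over all probes and at 0.14 in the authors' tables. Leaving out each array in turn, the change ran from -0.015 to 0.064 for Aldh8a1, from -5.10 to 1.17 for Atf3, from -0.010 to 0.11 for C3, from -3.80 to 2.57 for Egr1, from -4.44 to 2.13 for Fos, from -0.0094 to 0.37 for G6pc, from -0.31 to 0.59 for Rhbg and from -0.37 to 0.18 for Suz12. For settings other than leaving out an array the cause was not tested. Signals near background limit dim genes to bounds.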

Other observations

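Genes of the endoplasmic reticulum, lysosome and proteasome were described from lists written after the values were seen, so the counts carry no test of the lists. Of 50 tested genes of the secretory pathway of the endoplasmic reticulum, 11 rose and 2 fell, with a median change of 0.30. Among all genes tested 7.99% rose and 12.9% fell. Derl3, which helps remove misfolded proteins, was at -3.09 and -3.26 at 1 month and at -0.16 and 0.01 at 5 months, 8.55-fold higher (limma, adjusted p = 0.0101). The chaperone gene Calr was at 2.65 and 2.25 and then at 4.13 and 4.41, 3.53-fold higher (adjusted p = 0.0135). The falls were those of Srp9 and Srp14, parts of the signal recognition particle.

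Of 34 tested lysosomal genes 8 rose and 0 fell, beside 7.99% and 12.9% of all genes tested, with a median change of 0.54. Psap, the precursor of the saposins that help break down sphingolipids, was at 1.60 and 1.18 at 1 month and at 3.68 and 4.07 at 5 months, 5.58-fold higher (limma, adjusted p = 0.0048). Glb1, the lysosomal beta-galactosidase gene, was at -1.86 and -1.67 and then at 0.37 and 0.57, 4.70-fold higher (adjusted p = 0.0017). Of 25 proteasome subunit genes 1 rose and 5 fell, beside the same shares of all genes, with a median change of -0.28.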
